A study of Homo sapiens with 18 samples.

Results

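The BCL2 family genes described here are 10 members that hold or release the mitochondrial brake on cell death: BCL2, BCL2L1, BCL2L2, MCL1, BCL2A1, BCL2L11, BMF, PMAIP1, BIK and BAK1. They were taken by symbol from the counts of 60642 gene symbols, and all 10 were found. RNA was sequenced from MDA-MB-231 cells, an established human triple-negative breast cancer line of mesenchymal type, in 6 conditions with 3 replicates each (18 libraries). Cells received a pool of siRNAs against PRMT5 (siPRMT5), a pool against CBX3, the gene of HP1γ (siHP1γ), or a non-specific siRNA (siNS), and then 100 nM dexamethasone (Dex) or its vehicle ethanol (Eth) for 8 h. Dex is a synthetic glucocorticoid that activates the glucocorticoid receptor (GR), PRMT5 is an arginine methyltransferase, and HP1γ is a chromatin protein; the study asked how PRMT5 and HP1γ act in GR signalling. Each depletion used 1 siRNA pool, all cells were of 1 line, and every condition carried an siRNA, so no untransfected cells stand beside them.

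Proteins of the BCL2 family decide whether the outer mitochondrial membrane is opened, which releases cytochrome c and starts the caspases. Pro-survival members (the products of BCL2, BCL2L1, BCL2L2, MCL1 and BCL2A1) bind and hold the effectors, of which BAK1 encodes one. The BH3-only proteins BIM (BCL2L11), BMF, NOXA (PMAIP1) and BIK carry only the short BH3 helix, which fits into the groove of the pro-survival proteins and frees the effectors. Glucocorticoids kill lymphoid cells through this family, whereas in breast epithelial cells they are known to promote survival.

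The BH3 helix is what joins these genes into a family, so the coding bases over it are shown for every member in which they could be found. Each stretch runs 5′ to 3′ on the coding strand of hg38, and the capitals mark the core of the helix, a codon for leucine or methionine, any 2 codons, a codon for alanine, valine, isoleucine or phenylalanine, one for glycine or alanine, and one for aspartate. The pattern was searched in the canonical transcript of each gene in GENCODE 44, gave exactly 1 match in 9 of the 10 members, and gave none in BCL2A1.
BCL2 (chr18:63318352-63318387, minus strand): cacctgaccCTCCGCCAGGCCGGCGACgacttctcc
BCL2L1 (chr20:31721925-31721960, minus strand): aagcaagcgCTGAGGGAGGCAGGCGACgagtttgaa
BCL2L2 (chr14:23307894-23307929, plus strand): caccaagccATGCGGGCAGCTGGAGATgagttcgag
MCL1 (chr1:150578868-150578903, minus strand): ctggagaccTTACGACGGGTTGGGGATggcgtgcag
BCL2L11 (chr2:111150094-111150129, plus strand): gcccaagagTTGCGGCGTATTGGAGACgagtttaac
BMF (chr15:40104198-40104233, minus strand): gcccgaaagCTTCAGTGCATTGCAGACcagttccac
PMAIP1 (chr18:59902664-59902699, plus strand): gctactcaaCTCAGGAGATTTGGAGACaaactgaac
BIK (chr22:43127707-43127742, plus strand): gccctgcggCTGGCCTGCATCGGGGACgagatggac
BAK1 (chr6:33575390-33575425, minus strand): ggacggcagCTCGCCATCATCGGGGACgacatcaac
In these transcripts the stretch lay in exon 4 for BMF and BAK1, in exon 3 for BCL2L2, BCL2L11 and BIK, in exon 2 for BCL2, BCL2L1 and PMAIP1, and in exon 1 for MCL1. No stretch crossed an exon junction, and the core of each of the 9 genes is spelled differently.

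The gene counts of a library summed to between 8682992 and 12472381. The siRNA targets fitted the labels, since PRMT5 stood at 249 ± 19.96 CPM (counts divided by the TMM-scaled library size and brought to 1 common total; mean ± SD, n = 3) in siNS Eth and 7.41 ± 1.17 CPM in siPRMT5 Eth, and CBX3 at 256 ± 20.1 CPM in siNS Eth and 9.89 ± 0.657 CPM in siHP1γ Eth. VIM (5444 to 9592 CPM) and CD44 (506 to 857 CPM), markers of mesenchymal cells, were high in all 18 libraries, while ESR1, PGR and CDH1, which triple-negative mesenchymal cells lack, did not exceed 0.207, 0.218 and 0.104 CPM. AXL, a further mesenchymal marker, stood at 963 ± 46.6 CPM in siNS Eth and 221 ± 9.12 CPM in siPRMT5 Eth, and the epithelial markers EPCAM and GATA3 were present at low level (up to 14.0 and 7.48 CPM). The markers of blood, liver and endothelial cells PTPRC, CD3E, LYZ and ALB were at or near 0, and PECAM1 ranged from 1.10 to 8.15 CPM, so that the list of such markers summed to 1.32 to 1.66 CPM in siNS Eth and 5.86 to 8.37 CPM in siPRMT5 Dex. The part of AXL and PECAM1 in the results was not tested. In such bulk samples a lower share of cells that use a gene and less of its RNA per cell cannot be told apart. Counts per gene also do not separate splice forms, of which the long and short forms of BCL2L1 and MCL1 are known to act in opposite directions.

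Values below are CPM after TMM scaling of the library sizes. Differences are log2 fold changes from edgeR's quasi-likelihood fit of the 18 libraries, with their standard error (SE) or 95% interval and a p-value adjusted (Benjamini-Hochberg) over the 15298 genes tested. Following thresholds that the study names, a Dex response passed at an adjusted p under 0.01 with a fold change of at least 1.5, and a depletion at an adjusted p under 0.05. Differences of the Dex response between cells, tested as an interaction, also passed at an adjusted p under 0.05. Of the 10 members, 8 had enough counts to be tested, and BCL2A1 and BIK did not.

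The members differed widely in abundance, and 2 pro-survival genes led. On the scale of CPM per kb of exons, BCL2L1 (126) and MCL1 (104) were highest in siNS Eth, followed by PMAIP1 (58.1), BAK1 (8.75) and BCL2L2 (8.10). BCL2L11 (1.86), BCL2 (1.46) and BMF (0.642) were far lower, and BIK (0.255) and BCL2A1 (0.249) were lowest. On that scale BCL2 itself, the founding member, was among the rare transcripts of the family in these cells. Without division by exon length, BCL2 (18.4 CPM in siNS Eth) stood close to BAK1 (19.4 CPM) and above BCL2L11 (12.5 CPM). Whether the library kit gives counts in proportion to length is not given in the sources used here. The order between genes of similar level and the place of BCL2 are therefore uncertain.

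**Figure D1:**
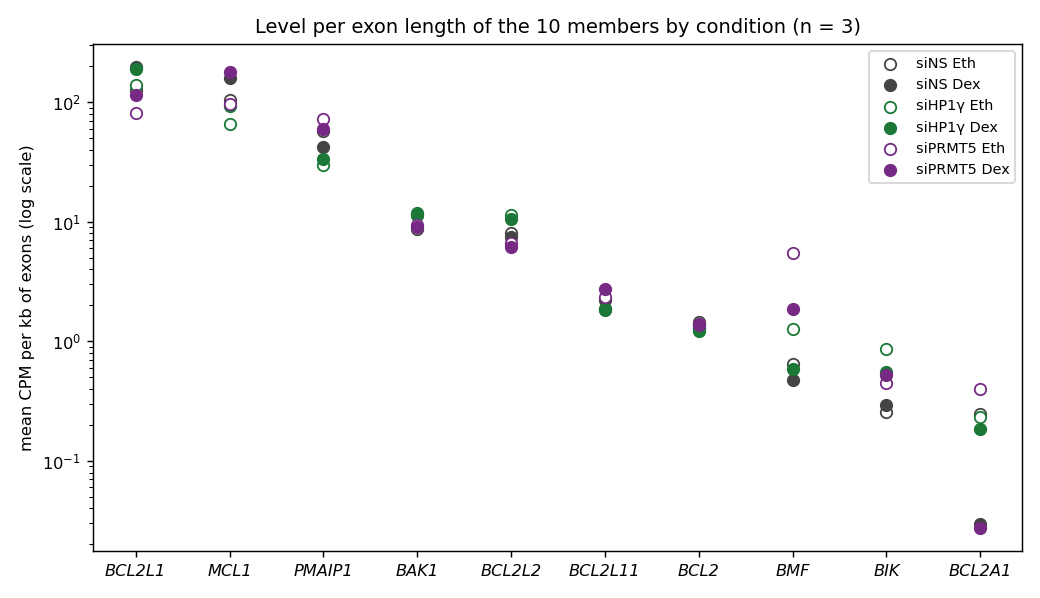
Mean CPM per kb of exons of each of the 10 members (log scale, 3 replicates per condition), ordered by their level in siNS Eth, with open points for Eth and filled points for Dex. BCL2L1 and MCL1 lead in every condition (65.7 to 198 CPM per kb), and BMF is the member whose 6 points are spread most widely among those tested (0.474 to 5.54 CPM per kb).

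BCL2L1, which encodes BCL-xL, rose with Dex in siNS cells and was lower in siPRMT5 cells under both treatments. The gene lies at chr20:31664452-31723989 (minus strand, hg38). It stood at 500.3, 541 and 545 CPM in the 3 siNS Eth libraries and at 868, 821 and 800.1 CPM in the siNS Dex libraries. With siHP1γ it stood at 570.4, 593 and 598 CPM with Eth and at 802, 789.8 and 792 CPM with Dex. With siPRMT5 it stood at 344, 339 and 337 CPM with Eth and at 484, 497 and 461 CPM with Dex. The Dex libraries were above the Eth libraries in all 3 kinds of cells without overlap, and even with Dex the siPRMT5 libraries did not reach the lowest siNS Eth library. The Dex response of siNS cells was 1.57-fold (log2 0.65, SE 0.058, adjusted p = 4.7e-09 by edgeR). In siHP1γ cells the difference was 1.35-fold (adjusted p = 7.2e-06) and in siPRMT5 cells 1.41-fold (adjusted p = 3.2e-07), both under the fold limit of 1.5. The interactions did not pass (log2 -0.21, 95% interval -0.38 to -0.05, adjusted p = 0.18 for siHP1γ, and -0.15, -0.32 to 0.02, adjusted p = 0.33 for siPRMT5). Relative to siNS, siPRMT5 left 64.3% of the level with Eth (log2 -0.64, SE 0.058, adjusted p = 2.1e-09) and 58.0% with Dex (log2 -0.79, SE 0.058, adjusted p = 3.8e-11). With siHP1γ the Eth level was 1.11-fold higher, with an adjusted p = 0.047 that passed in the edgeR fit of all libraries. This difference also passed by DESeq2 and with library size alone. It passed in none of the 18 fits that left out a library (adjusted p between 0.052 and 0.25), nor in 5 other alternatives (0.051 to 0.14). The Dex levels of siHP1γ and siNS cells differed by a log2 of -0.06 (95% interval -0.18 to 0.06, adjusted p = 0.47). BCL2L1 overlaps the antisense genes BCL2L1-AS1 and ABALON, and the strand setting of the counting is not given in the sources used here, so reads of either strand cannot be told apart.

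MCL1, the gene of a short-lived pro-survival protein on which many breast cancer cells depend, rose with Dex in siNS and siPRMT5 cells and was lower in siHP1γ cells under both treatments. It lies at chr1:150560895-150579738 (minus strand). It stood at 684, 629 and 636 CPM in siNS Eth and at 1011, 934 and 1063 CPM in siNS Dex. In the siHP1γ libraries it stood at 393, 409 and 425 CPM with Eth and at 646, 567 and 543 CPM with Dex. In the siPRMT5 libraries it stood at 594, 583 and 639 CPM with Eth and at 1118, 1173 and 1082 CPM with Dex. Dex libraries lay above Eth libraries in each kind of cells, and every siHP1γ Eth library lay below every other library of the study. Of the siHP1γ Dex libraries the highest fell inside the siNS Eth range and the other two below it. The Dex response was 1.54-fold in siNS cells (log2 0.63, SE 0.0697, adjusted p = 2.5e-07 by edgeR) and 1.86-fold in siPRMT5 cells (log2 0.89, SE 0.0700, adjusted p = 2.5e-10). Without the siNS Dex library of replicate 3 the siNS response was 0.58 on the log2 scale, just under the fold limit. In siHP1γ cells the difference was 1.43-fold (adjusted p = 1e-05), also under that limit. The interactions did not pass (log2 -0.11, 95% interval -0.31 to 0.09, adjusted p = 0.61 for siHP1γ, and 0.27, 0.06 to 0.47, adjusted p = 0.13 for siPRMT5). Relative to siNS, siHP1γ left 63.0% with Eth (log2 -0.67, SE 0.0702, adjusted p = 7.9e-08) and 58.4% with Dex (log2 -0.78, SE 0.0698, adjusted p = 6.7e-09). For siPRMT5 the difference was -0.10 with Eth (95% interval -0.24 to 0.04, adjusted p = 0.26) and 0.17 with Dex (0.02 to 0.31, adjusted p = 0.057). The last of these passed in 3 alternatives, DESeq2 (adjusted p = 0.038), DESeq2's size factors in edgeR (0.042) and library size alone (0.040), and its adjusted p reached 0.11 over the 7 alternatives. It also passed in 6 of the 18 fits that left out a library (adjusted p between 0.024 and 0.046). MCL1 overlaps ADAMTSL4-AS1 on its own strand and ADAMTSL4 on the other, so part of its count is uncertain.

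The 2 leading survival genes were thus lower in different cells, MCL1 with siHP1γ and BCL2L1 with siPRMT5. Their ratio within each library, which needs no scaling of library sizes, restates this pattern and does not show which of the genes moved. MCL1 counts over BCL2L1 counts were 1.37, 1.16 and 1.17 in siNS Eth and 1.16, 1.14 and 1.33 in siNS Dex, ranges that overlap. The ratio was 0.688, 0.690 and 0.711 in siHP1γ Eth and 0.806, 0.718 and 0.685 in siHP1γ Dex. It was 1.73, 1.72 and 1.90 in siPRMT5 Eth and 2.31, 2.36 and 2.35 in siPRMT5 Dex. The 3 kinds of cells did not overlap, with siHP1γ lowest and siPRMT5 highest, and within siPRMT5 cells the Dex libraries were also apart from the Eth libraries. These are count ratios not corrected for gene length, given as a description.

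**Figure D2:**
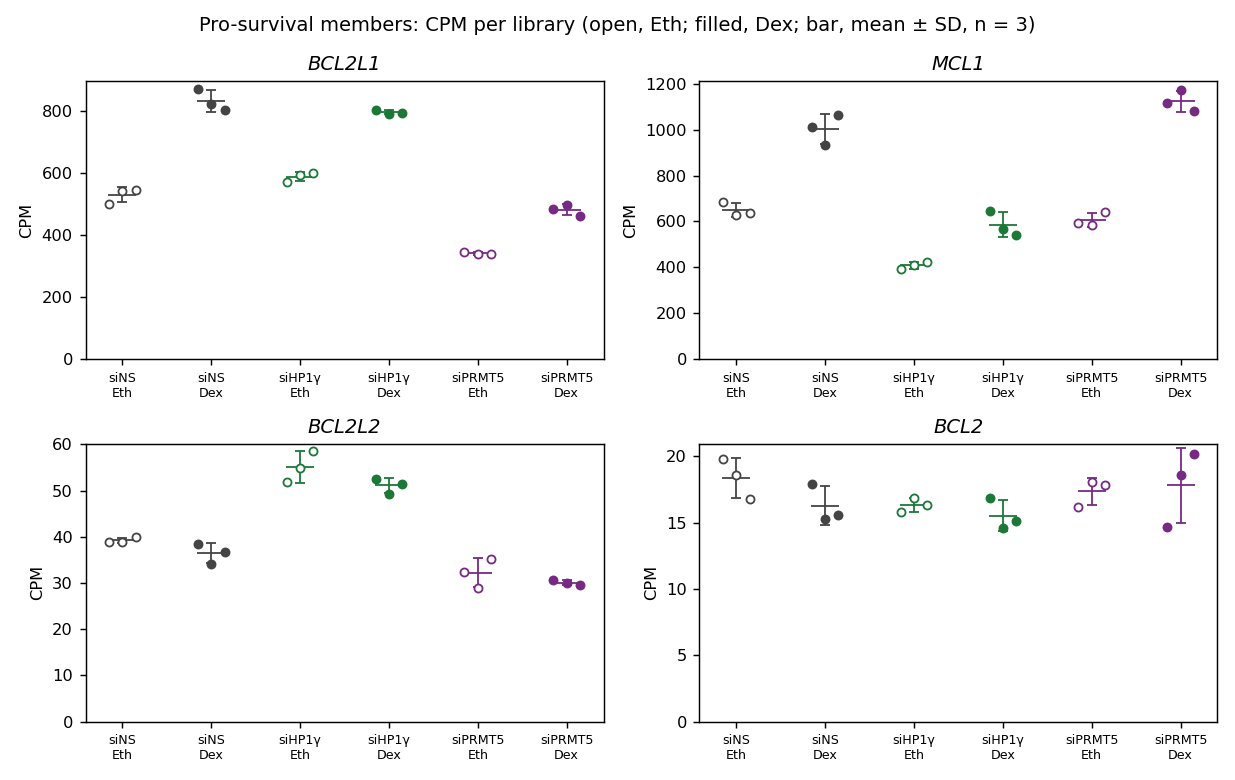
CPM of the 4 tested pro-survival members in each library (open points, Eth; filled points, Dex; bar, mean ± SD of 3 replicates), by siRNA. BCL2L1 is lowest in siPRMT5 Eth (339.9 ± 3.49 CPM) and highest in siNS Dex (829.7 ± 35.0 CPM), whereas MCL1 is lowest in siHP1γ Eth (409 ± 16.2 CPM) and highest in siPRMT5 Dex (1124 ± 45.8 CPM).

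BCL2L2, which encodes BCL-w, was higher with siHP1γ and lower with siPRMT5, and showed no Dex response that passed. It lies at chr14:23298790-23311751 (plus strand). It stood at 38.9, 38.9 and 39.9 CPM in siNS Eth and at 38.5, 34.1 and 36.7 CPM in siNS Dex. In siHP1γ cells it stood at 51.9, 54.8 and 58.6 CPM with Eth and at 52.6, 49.3 and 51.4 CPM with Dex. In siPRMT5 cells it stood at 32.3, 29.0 and 35.3 CPM with Eth and at 30.6, 29.9 and 29.6 CPM with Dex. All 6 siHP1γ libraries were above, and all siPRMT5 libraries of a treatment below, the siNS libraries of that treatment. With siHP1γ the level was 1.41-fold higher with Eth (log2 0.49, SE 0.0804, adjusted p = 4.1e-05 by edgeR) and 1.40-fold higher with Dex (log2 0.49, SE 0.0803, adjusted p = 6.3e-05). With siPRMT5 it was left at 82.3% with Eth (adjusted p = 0.0089) and at 82.4% with Dex (adjusted p = 0.0088). The Eth difference did not pass without siPRMT5 Eth replicate 2 (log2 -0.22, adjusted p = 0.068), nor the Dex difference without siNS Dex replicate 1 (-0.23, adjusted p = 0.057). Dex differences were -0.10 in siNS (95% interval -0.27 to 0.07), -0.11 in siHP1γ (-0.27 to 0.05) and -0.10 in siPRMT5 cells (-0.28 to 0.07). The readthrough gene BCL2L2-PABPN1, which shares exons with BCL2L2 and was looked at after its values were seen, held 0 to 7 counts per library. How reads over shared exons were counted is not given in the sources used here. These counts therefore do not show how much readthrough RNA there was, and part of the BCL2L2 count is uncertain. HOMEZ and PPP1R3E overlap BCL2L2 on the other strand.

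BCL2, the founding member, passed in none of the 11 comparisons. It lies at chr18:63123346-63320128 (minus strand). It stood at 19.8, 18.5 and 16.8 CPM in siNS Eth and at 17.9, 15.3 and 15.6 CPM in siNS Dex. With siHP1γ it stood at 15.8, 16.8 and 16.3 CPM with Eth and at 16.8, 14.6 and 15.1 CPM with Dex. With siPRMT5 it stood at 16.2, 18.1 and 17.8 CPM with Eth and at 14.7, 18.6 and 20.1 CPM with Dex. Neighbouring conditions overlapped along the whole order of means, from 18.4 ± 1.499 CPM in siNS Eth down to 15.5 ± 1.19 CPM in siHP1γ Dex. The difference of siNS Dex from siNS Eth was -0.17 (log2, 95% interval -0.41 to 0.07, adjusted p = 0.41), which leaves room for a fall to 75.4% or a rise to 1.05-fold. Its difference between siPRMT5 Dex and siHP1γ Dex was 0.19 (-0.04 to 0.43, adjusted p = 0.17), the furthest from 0 of the 9 comparisons between conditions. Without siPRMT5 Dex replicate 1 this difference was 0.32 and passed (adjusted p = 0.025).

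BCL2A1, which encodes a pro-survival protein best known from blood cells, was at the limit of detection. It lies at chr15:79960892-79971196 (minus strand). Its counts were 3, 2 and 2 in siNS Eth, 1, 0 and 0 in siNS Dex, 4, 1 and 2 in siHP1γ Eth and 1, 2 and 3 in siHP1γ Dex. In siPRMT5 cells they were 3, 4 and 4 with Eth and 0, 1 and 0 with Dex. The Eth and Dex counts did not overlap in siNS or in siPRMT5 cells, and they overlapped in siHP1γ cells. A count of 0 allows up to 3 counts, or 0.272 to 0.339 CPM in the 4 libraries with none. That limit reaches the siNS Eth values (0.204 to 0.331 CPM) and the lower of the siPRMT5 Eth values (0.322 to 0.470 CPM). It applies to 1 library at a time. Summed over 3 libraries, the counts were 7 in siNS Eth, 1 in siNS Dex, 11 in siPRMT5 Eth and 1 in siPRMT5 Dex. In an edgeR fit without the filter on low counts, neither Dex difference passed. It was -2.54 in siNS cells (log2, SE 1.26, unadjusted p = 0.044, adjusted p = 0.39 by edgeR). In siPRMT5 cells it was -3.21 (SE 1.16, unadjusted p = 0.0058, adjusted p = 0.075 by edgeR).

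BMF moved most. It encodes a BH3-only protein that binds the dynein light chain until stress or loss of attachment frees it, and lies at chr15:40087890-40108892 (minus strand). It stood at 2.98, 3.47 and 4.04 CPM in siNS Eth and at 3.18, 1.85 and 2.72 CPM in siNS Dex. In the siHP1γ libraries it stood at 6.89, 7.48 and 6.40 CPM with Eth and at 2.44, 3.62 and 3.48 CPM with Dex. In the siPRMT5 libraries it stood at 28.3, 27.5 and 34.8 CPM with Eth and at 9.38, 10.1 and 11.2 CPM with Dex. Ranked by mean, siPRMT5 Eth, siPRMT5 Dex and siHP1γ Eth each stood apart from the next condition, whereas siNS Eth, siHP1γ Dex and siNS Dex overlapped. Without Dex, siPRMT5 raised the level 8.61-fold (log2 3.11, 95% interval 2.78 to 3.43, adjusted p = 4.5e-14 by edgeR) and siHP1γ 1.97-fold (log2 0.98, 0.59 to 1.37, adjusted p = 0.0003). With Dex, siPRMT5 raised it 3.87-fold (log2 1.95, 1.57 to 2.34, adjusted p = 4.3e-09), while siHP1γ differed by a log2 of 0.26 (95% interval -0.21 to 0.72, adjusted p = 0.45). Dex left 33.7% of the level in siPRMT5 cells (log2 -1.57, SE 0.132, adjusted p = 9.3e-10) and 45.5% in siHP1γ cells (log2 -1.14, SE 0.188, adjusted p = 0.00019). In siNS cells, where the gene had 17 to 39 counts per library, the difference was -0.41 (95% interval -0.88 to 0.05, adjusted p = 0.29). The Dex response of siPRMT5 cells was more negative than that of siNS cells by a log2 of -1.15 (95% interval -1.70 to -0.60, adjusted p = 0.013). Over 7 alternatives of test, scaling, filter, block and libraries its adjusted p lay between 0.0028 and 0.015. The call was lost without siNS Eth replicate 1 (-1.04, adjusted p = 0.0503), siNS Dex replicate 1 (-0.96, adjusted p = 0.098) or siNS Dex replicate 3 (-1.11, adjusted p = 0.053). For siHP1γ the interaction was -0.72 (-1.34 to -0.11, adjusted p = 0.21). BMF overlaps the antisense gene BMF-AS1.

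Among the members with a promoter sequence at hand, BCL2L1 passed the Dex thresholds as a rise, in siNS cells only. BMF passed them as a fall in siHP1γ and siPRMT5 cells, but not in siNS cells. The 250 bases before the most upstream RefSeq start of each gene (GRCh38.p14, minus strand) are shown with CpG pairs in capitals.
BCL2L1 (chr20:31723964-31724213): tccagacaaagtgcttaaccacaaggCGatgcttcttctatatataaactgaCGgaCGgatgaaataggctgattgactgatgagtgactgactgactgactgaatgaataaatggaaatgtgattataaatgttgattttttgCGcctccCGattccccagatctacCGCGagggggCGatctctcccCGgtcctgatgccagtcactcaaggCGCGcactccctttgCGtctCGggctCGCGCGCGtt
BMF (chr15:40108880-40109129): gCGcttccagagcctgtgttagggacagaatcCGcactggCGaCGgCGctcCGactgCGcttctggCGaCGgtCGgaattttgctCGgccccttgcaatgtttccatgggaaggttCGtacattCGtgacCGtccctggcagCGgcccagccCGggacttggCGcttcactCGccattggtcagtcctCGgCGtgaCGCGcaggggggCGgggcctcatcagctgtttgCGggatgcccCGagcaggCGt
The BMF stretch holds 26 CpG pairs at a GC content of 65.2%, and that of BCL2L1 holds 17. Each gene has a further RefSeq start. The 250 bases before it hold 0 CpG pairs for BMF (GC content 48.8%) and 12 for BCL2L1 (60.4%). Which start these cells use was not tested. The letters AGAACA, one arm of the element that GR binds, were searched on both strands and occur in neither of the stretches shown. They were also absent from all 9 RefSeq promoter windows of 300 bases found for 7 of the members. Of the 35116 windows of that length 14.8% hold them, so most windows lack them. Their absence from these few windows does not set the members apart from other genes. Such a search describes these windows alone, and GR sites of these genes may lie elsewhere.

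PMAIP1, whose product NOXA binds MCL1 above all, was lower with siHP1γ and higher with siPRMT5. It lies at chr18:59899996-59904305 (plus strand). It stood at 143, 108 and 131 CPM in siNS Eth and at 96.3, 93.6 and 90.5 CPM in siNS Dex. In siHP1γ cells it stood at 59.1, 66.6 and 70.3 CPM with Eth and at 87.4, 66.6 and 64.7 CPM with Dex. In siPRMT5 cells it stood at 171, 135 and 169 CPM with Eth and at 129, 148 and 113 CPM with Dex. The siHP1γ libraries lay below the siNS libraries of the same treatment, and the siPRMT5 Dex libraries above those of siNS Dex, while siPRMT5 Eth and siNS Eth overlapped. With siHP1γ, 51.5% of the Eth level was left (log2 -0.96, SE 0.1196, adjusted p = 1.1e-06 by edgeR) and 78.2% of the Dex level (log2 -0.36, SE 0.119, adjusted p = 0.031). The Dex call was lost with library size alone (adjusted p = 0.092) and without any of the 3 siNS Dex libraries or siHP1γ Dex replicate 2 or 3 (adjusted p between 0.054 and 0.12). With siPRMT5 the level was 1.25-fold higher with Eth (log2 0.32, SE 0.115, adjusted p = 0.028) and 1.39-fold higher with Dex (log2 0.48, SE 0.117, adjusted p = 0.0016). The Eth call was lost without siNS Eth replicate 2 or 3 or siPRMT5 Eth replicate 1 or 3 (adjusted p between 0.0504 and 0.18). The Dex difference in siNS cells was -0.44 (95% interval -0.68 to -0.20, adjusted p = 0.015), which misses the Dex threshold although the groups do not overlap. In siHP1γ cells it was 0.16 (-0.09 to 0.41, adjusted p = 0.54) and in siPRMT5 cells -0.28 (-0.52 to -0.05, adjusted p = 0.10). The interaction for siHP1γ was 0.60 (0.25 to 0.95), with an adjusted p of 0.096 by edgeR and 0.037 by DESeq2, and between 0.00094 (no filter on low counts) and 0.10 over the 7 alternatives.

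BCL2L11, which encodes BIM and is a known mediator of glucocorticoid killing in lymphoid cells, passed in no comparison with siNS cells. It lies at chr2:111119378-111168444 (plus strand). It stood at 12.1, 11.3 and 14.1 CPM in siNS Eth and at 18.02, 13.4 and 13.8 CPM in siNS Dex. With siHP1γ it stood at 10.8, 12.3 and 14.5 CPM with Eth and at 12.8, 14.6 and 9.495 CPM with Dex. With siPRMT5 it stood at 15.9, 13.3 and 18.4 CPM with Eth and at 17.3, 19.5 and 18.2 CPM with Dex. Neighbouring conditions overlapped along the whole order, with the siPRMT5 conditions at its top. The Dex difference in siNS cells was 0.27 (log2, 95% interval -0.05 to 0.59, adjusted p = 0.31). The siPRMT5 differences were 0.35 with Eth (0.02 to 0.67, adjusted p = 0.078) and 0.28 with Dex (-0.02 to 0.58, adjusted p = 0.13), and each passed in a fit without 1 library (siPRMT5 Eth replicate 2, adjusted p = 0.033; siNS Dex replicate 1, adjusted p = 0.034). The long noncoding gene MIR4435-2HG overlaps BCL2L11 on the other strand.

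BIK, a BH3-only gene of the endoplasmic reticulum, was nearly silent. It lies at chr22:43110750-43129712 (plus strand). Its counts were 1, 2 and 4 in siNS Eth and 4, 2 and 3 in siNS Dex. They were 6, 13 and 7 in siHP1γ Eth, 3, 8 and 6 in siHP1γ Dex, 7, 2 and 3 in siPRMT5 Eth and 8, 3 and 4 in siPRMT5 Dex. The siHP1γ Eth counts were above all 3 siNS Eth counts, and no other depleted condition was apart from its siNS reference. In a fit without the filter on low counts that one difference passed (adjusted p = 0.040 by edgeR), a call that rests on 7 counts against 26 in all.

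BAK1, which encodes the effector BAK, showed small differences. It lies at chr6:33572547-33580293 (minus strand). It stood at 16.8, 20.5 and 20.8 CPM in siNS Eth and at 28.0, 25.5 and 22.2 CPM in siNS Dex. In the siHP1γ libraries it stood at 23.9, 26.2 and 26.5 CPM with Eth and at 23.0, 26.6 and 29.9 CPM with Dex. In the siPRMT5 libraries it stood at 19.4, 23.5 and 19.999 CPM with Eth and at 20.6, 19.0 and 20.7 CPM with Dex. The siNS Eth libraries were below those of siNS Dex and of siHP1γ Eth, and the siPRMT5 Dex libraries below those of siNS Dex. The level was 1.32-fold higher in siHP1γ Eth than in siNS Eth (log2 0.40, SE 0.116, adjusted p = 0.010 by edgeR), and 79.5% of the siNS Dex level was left in siPRMT5 Dex (log2 -0.33, SE 0.114, adjusted p = 0.022). The first call was lost without siNS Eth replicate 1 (adjusted p = 0.083), and the second without siNS Dex replicate 1 or 2 or siPRMT5 Dex replicate 2 (adjusted p between 0.054 and 0.15). The Dex difference of siNS cells, 0.38 (95% interval 0.14 to 0.62, adjusted p = 0.037), missed the Dex threshold. The processed pseudogene BAK1P1 (chr20:32690180-32690815), looked at after its values were seen, held 66 to 140 counts per library beside the 152 to 318 of BAK1, so reads of BAK1 may be counted there.

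**Figure D3:**
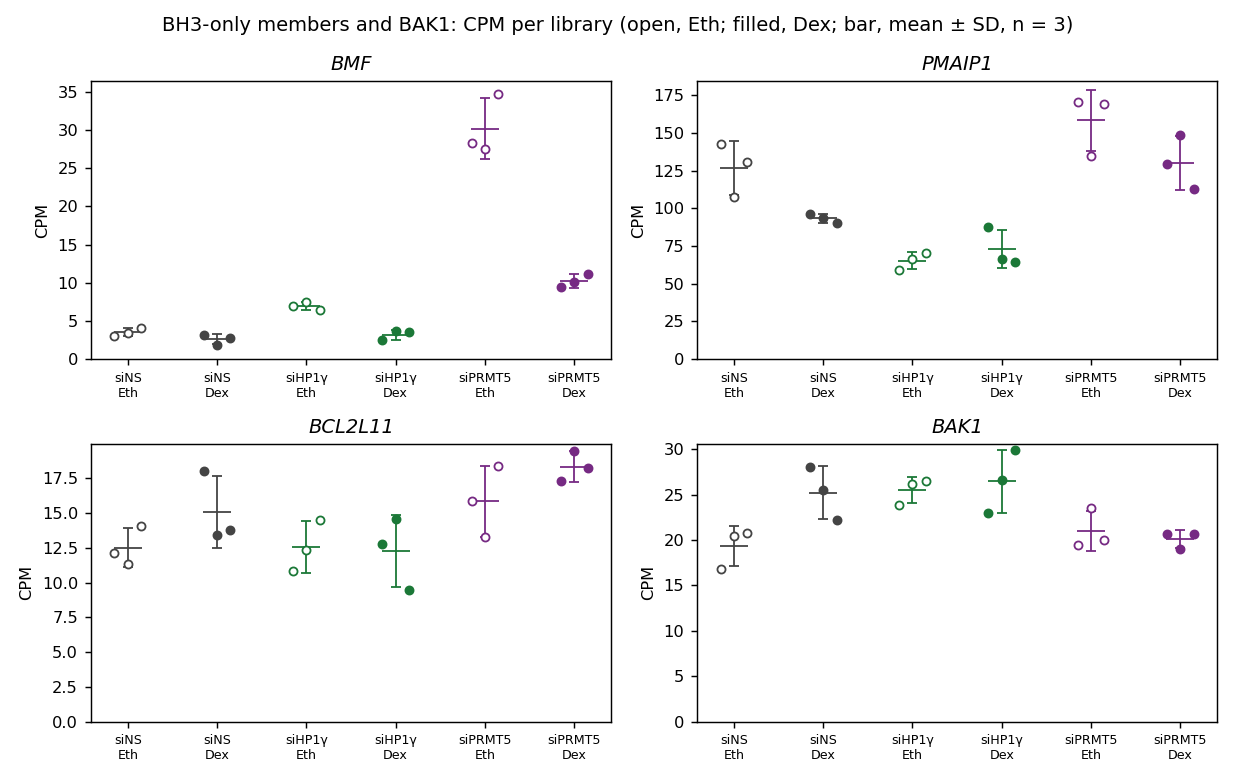
CPM of the tested BH3-only members and of BAK1 in each library (open points, Eth; filled points, Dex; bar, mean ± SD of 3 replicates), by siRNA. BMF stands at 30.2 ± 4.004 CPM in siPRMT5 Eth against 3.50 ± 0.530 CPM in siNS Eth, and PMAIP1 is lowest in siHP1γ Eth (65.3 ± 5.74 CPM).

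Read by comparison, Dex in siNS cells raised 2 of the 8 tested members, BCL2L1 and MCL1, both pro-survival, and lowered none. Over all genes tested, 2.71% passed this comparison. At an adjusted p under 0.05 with no fold limit, 4 members passed (also BAK1, higher, and PMAIP1, lower), where 9.16% of all genes did. In siHP1γ cells Dex lowered 1 member, BMF (1.67% of all genes passed), and 3 members passed without the fold limit (5.55% of genes), BCL2L1 and MCL1 joining with positive differences. In siPRMT5 cells Dex raised MCL1 and lowered BMF, 2 members, where 5.44% of genes passed, and 3 members with BCL2L1 passed without the fold limit (16.0% of genes). For the survival genes BCL2L1 and MCL1 the adjusted p was under 0.01 in each kind of cells, and the log2 differences in siNS, siHP1γ and siPRMT5 cells were 0.65, 0.44 and 0.50 for BCL2L1 and 0.63, 0.52 and 0.89 for MCL1.

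**Figure D4:**
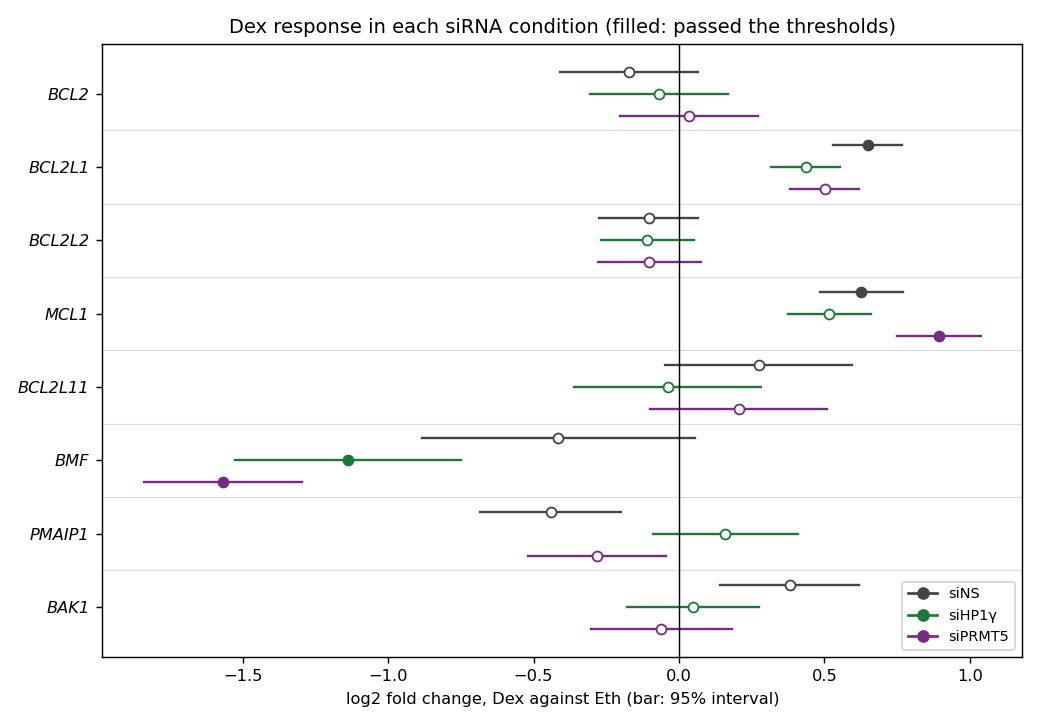
Log2 fold change of Dex against Eth (horizontal axis; bar, 95% interval) for the 8 tested members in siNS, siHP1γ and siPRMT5 cells, filled where the adjusted p and fold thresholds were passed. MCL1 and BCL2L1 lie to the right of 0 in all 3 kinds of cells, and BMF lies furthest to the left in siPRMT5 cells (-1.57).

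Depletion of HP1γ with Dex present changed 3 members, as BCL2L2 rose and MCL1 and PMAIP1 fell, while 24.0% of all genes passed. Without Dex it changed 6 members, 4 higher (BMF, BCL2L2, BAK1 and BCL2L1) and 2 lower (PMAIP1 and MCL1), where 31.8% of genes passed. Over all genes, scaling by library size alone turned the split of calls with Dex from 1787 higher and 1882 lower to 2848 and 1269, and that without Dex from 2531 and 2329 to 3198 and 1814. Under that scaling the only call of a member lost in these comparisons was that of PMAIP1 with Dex, and no called member changed direction. Depletion of PRMT5 with Dex present changed 5 members, BMF and PMAIP1 higher and BCL2L1, BAK1 and BCL2L2 lower, where 42.4% of genes passed. Without Dex it changed 4, again BMF and PMAIP1 higher and BCL2L1 and BCL2L2 lower, where 42.1% of genes passed. With 8 members tested, the counts for siPRMT5 lie near these backgrounds and say little about the members as a set. The siNS Dex libraries are the reference of both depletions with Dex and one side of the Dex response in siNS cells, and the siNS Eth libraries likewise, so these comparisons are not independent of each other.

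**Figure D5:**
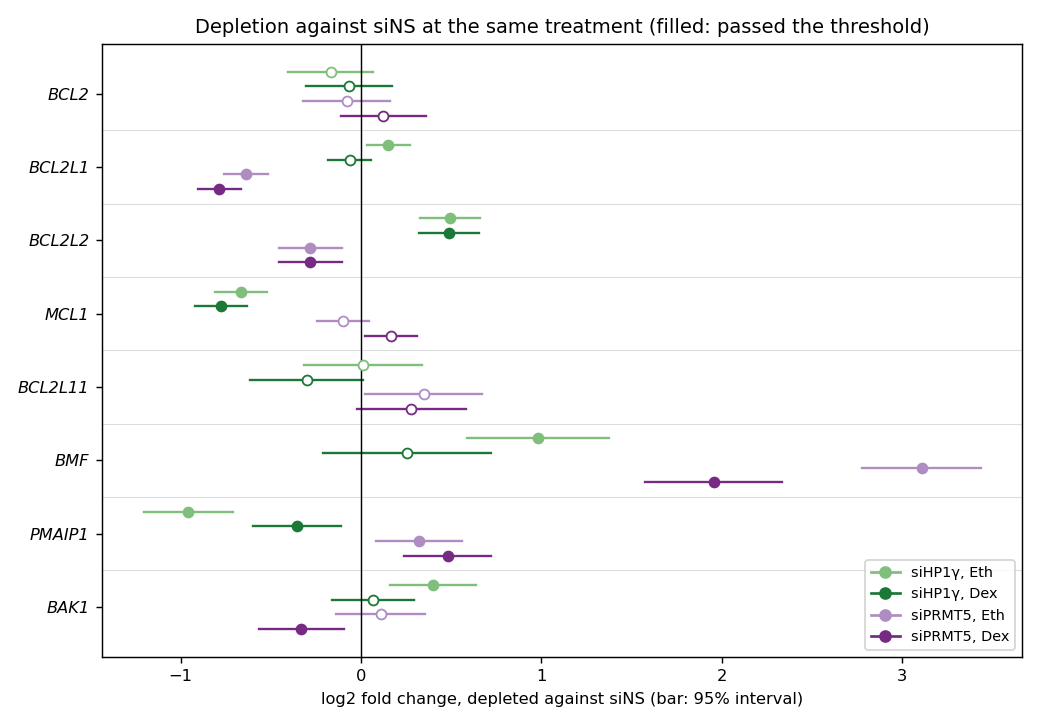
Log2 fold change of each depletion against siNS at the same treatment (horizontal axis; bar, 95% interval) for the 8 tested members, filled where the adjusted p was under 0.05. BMF with siPRMT5 lies furthest to the right (3.11 with Eth, 1.95 with Dex), MCL1 lies left of 0 with siHP1γ (-0.67 and -0.78), and BCL2L1 lies left of 0 with siPRMT5 (-0.64 and -0.79).

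The Dex response differed between depleted and siNS cells for few members. For siHP1γ no member passed by edgeR (0.399% of all genes did). At an unadjusted p under 0.05 by edgeR there were 4 members (PMAIP1, BCL2L1, BMF and BAK1), beside 2636 of all 15298 genes. By DESeq2 1 member passed, PMAIP1, beside 314 of 33022 genes. For siPRMT5 1 member passed by edgeR, BMF, where 3.8% of genes did. At an unadjusted p under 0.05 by edgeR there were 3 members, beside 2912 of all 15298 genes.

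The depleted cells were also compared directly. With Dex, 7 members differed between siPRMT5 and siHP1γ cells, BMF (3.24-fold), MCL1 (1.92-fold), PMAIP1 (1.78-fold) and BCL2L11 (1.496-fold) higher in siPRMT5 and BCL2L2, BCL2L1 and BAK1 lower (58.8%, 60.5% and 76.0% of the siHP1γ level), and 49.9% of all genes passed. The BCL2L11 difference was 0.58 (log2, SE 0.149, adjusted p = 0.0021 by edgeR), its only call in the 11 comparisons. Without Dex 6 members differed, BMF (4.37-fold), PMAIP1 (2.42-fold) and MCL1 (1.48-fold) higher in siPRMT5 and BCL2L1, BCL2L2 and BAK1 lower (57.9%, 58.5% and 81.9%), and 48.4% of genes passed. The BAK1 call without Dex (adjusted p = 0.042 by edgeR) was lost by DESeq2 (0.077), without the filter on low counts (0.061) and in 7 of the fits that left out a library (0.051 to 0.18). The differences of each depletion from siNS with Dex, which share the siNS Dex libraries, were -0.36 (siHP1γ) and 0.48 (siPRMT5) for PMAIP1 and 0.49 and -0.28 for BCL2L2, each past its threshold. The median log2 difference of the tested members lay between -0.16 and 0.39 over the 11 comparisons, and that of all genes between -0.012 and 0.013.

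Of 51 other genes of the pathway, 42 were tested. Dex in siNS cells raised 2 of them (2.71% of all genes passed). BIRC3, an inhibitor of apoptosis protein, rose 7.04-fold from 33.8 ± 2.02 to 238 ± 15.7 CPM (SD, n = 3, adjusted p = 1e-15 by edgeR), and TNFRSF1A, a TNF receptor, rose 1.54-fold (adjusted p = 9.4e-08). None of the 9 tested members of the rest of the BCL2 family, which includes the effector BAX and the BH3-only gene BBC3, passed for Dex. Depletion of HP1γ with Dex present changed 14 of the 42 (24.0% of all genes passed), 6 higher and 8 lower, among them CASP8, an initiator caspase (1.38-fold, adjusted p = 4e-05), and XIAP, which blocks caspases (1.297-fold, adjusted p = 0.012), and, lower, TNFRSF10D, a decoy receptor for TRAIL (56.7% left, adjusted p = 3.7e-09), and TNFRSF1A (73.4% left, adjusted p = 1.1e-05). Depletion of PRMT5 with Dex present changed 25 (42.4% of all genes passed), 13 higher and 12 lower. BNIP3L, a mitophagy receptor, was 1.68-fold higher (adjusted p = 3.4e-07) and FBXW7, part of a ubiquitin ligase that marks MCL1 for degradation, 1.54-fold higher (adjusted p = 6.1e-07). APAF1, the scaffold of the apoptosome, was left at 58.0% (adjusted p = 1.5e-06) and BOK, a relative of BAX, at 71.3% (adjusted p = 0.00061). By group, where 42.4% of all genes passed, 8 of 9 tested genes of the rest of the BCL2 family passed for siPRMT5 with Dex (2 higher, 6 lower), 6 of 13 caspase and apoptosome genes (2 higher, 4 lower), 4 of 6 inhibitors of apoptosis (all higher), 5 of 9 death receptor genes (3 higher, 2 lower) and 2 of 5 genes of MCL1 turnover (both higher), several of these shares being near that of all genes. The median log2 difference of those 9 family genes was -0.27, against 0.0021 for all genes.

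The genes whose log2 CPM followed BMF most closely over the 18 libraries were FOSL2, an AP-1 subunit (Pearson r = 0.967), SLC6A6, the taurine transporter (0.954), and MAGI1, a scaffold of cell junctions (0.950). Those closest to MCL1 were YAP1, a transcriptional coactivator of the Hippo pathway (0.967), ALCAM, an adhesion molecule (0.966), and GCNT1, a glycosyltransferase (0.963). The libraries fall into 6 conditions that set most of these values, so the correlations are given as a description of likeness.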

How the data were processed

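RNA-seq counts of 18 MDA-MB-231 libraries (6 conditions, 3 biological replicates, grouped by the labels) were used. The authors prepared libraries with Lexogen kits, mapped the reads on hg38 with Bowtie2 2.4.2, counted them with HTSeq 0.9.1 and deposited whole-number counts per gene symbol without normalization. Gene annotation and strand setting are not given in the sources used here, and reads over exon junctions or shared with pseudogenes may be lost. A deposited table of the authors' own DESeq2 comparisons (Galaxy version 2.11.40.7, log2 fold changes and adjusted p-values) was not used.

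All libraries entered 1 quasi-likelihood fit in edgeR 4.0.16 (R 4.3.3), with filterByExpr, TMM, 1 mean per condition, 12 residual degrees of freedom and Benjamini-Hochberg adjustment over 15298 genes. The fit was tested on simulated counts. Replicates differed by more than sampling noise (chi-square per degree of freedom 2.01 to 11.3), so 18 samples were kept. Between both conditions of a comparison, same-numbered replicates did not correlate over 0.1 in all 3 numbers, and the numbers were not used as pairs. Alternatives were DESeq2 1.42.0, other scalings, filters, thresholds and libraries. The rule for named genes took every member, the 2 largest rises and falls called among the other listed genes for Dex in siNS cells and for each depletion with Dex, above a mean of 5 CPM, and the 3 genes most like each of BMF, the member called most often, and MCL1, which tied with 3 others and had the largest range of condition means among them. Results of some listed genes are not reported here. Members and lists were chosen with earlier results of these data known. Coordinates are from GENCODE 44, promoters from RefSeq. The 95% intervals come from the edgeR fit and include the spread between replicates, whereas the limit for a count of 0 covers counting error only. The paper names fold limits of 1.5 and 2 for the Dex response; 1.5 was used, and 2 was an alternative.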

Additional observations from a re-analysis of the deposited data

Results flagged for a closer look

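The BMF response to Dex differed between siPRMT5 and siNS cells by an interaction test, with a log2 difference of -1.15 (95% interval -1.70 to -0.60, adjusted p = 0.013 by edgeR). All 3 siPRMT5 Dex libraries (9.38 to 11.2 CPM) lay below all 3 siPRMT5 Eth libraries (27.5 to 34.8 CPM), whereas the siNS Dex (1.85 to 3.18 CPM) and siNS Eth libraries (2.98 to 4.04 CPM) overlapped. The siNS side rests on 17 to 39 counts per library, and its part in the difference was not tested.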

How the results depend on the processing

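Of the counts of members called, 81 of 91 values under alternatives other than leaving out a library stayed within 1.5 times the reported count. With no fold limit at an adjusted p under 0.05, Dex called 4 members in siNS (9.16% of all genes) and 3 in siHP1γ cells (5.55%). With a limit of 2-fold it called 0 in siNS and 1 in siPRMT5 cells, beside 194 and 373 of all 15298 genes. With a limit of 1.5-fold the depletions called 1 (siHP1γ Dex), 2 (siPRMT5 Dex), 3 (siHP1γ Eth) and 2 (siPRMT5 Eth). In that order 1124, 2592, 1507 and 2741 of all 15298 genes were called. The siHP1γ interaction called 1 member by DESeq2 and 1 without the filter on low counts, beside 314 and 374 of 33022 genes. With 1 library left out, members called ranged from 1 to 2 for Dex in siNS cells, 2 to 3 for siHP1γ with Dex, 4 to 6 for siPRMT5 with Dex, 4 to 5 for siHP1γ with Eth (6 reported, BCL2L1 being lost in every fit), 3 to 4 for siPRMT5 with Eth, 0 to 1 for either interaction, and 7 to 8 with Dex and 5 to 7 with Eth for siPRMT5 against siHP1γ. The replicate block called 2, 3, 5, 5, 4, 1, 2, 0, 1, 7 and 6 members in the 11 comparisons (Dex in siNS, siHP1γ and siPRMT5 with Dex, the same without Dex, Dex in siHP1γ and siPRMT5, the interactions for siHP1γ and siPRMT5, and siPRMT5 against siHP1γ with and without Dex), and changed only BCL2L1 in siHP1γ Eth (adjusted p = 0.0507). Of the pairs of conditions checked, only siHP1γ Dex and siNS Eth, which meet in the siHP1γ interaction, had deviations that correlated over 0.1 in all 3 numbers (r = 0.60, 0.33 and 0.21).

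Values near 0 changed sign. With library size alone, siHP1γ Dex against siNS Dex gave 0.014 for BCL2 and 0.019 for BCL2L1, and BCL2L2 gave 0.019 for the siHP1γ and -0.0038 for the siPRMT5 interaction. BCL2L2 also gave 0.0020 with at least 10 counts in every library, 0.019 with the libraries of the comparison alone (both siHP1γ) and -0.013 without the filter (siPRMT5). BCL2L11 in siHP1γ Eth gave -0.0039 with its libraries alone. With a library left out, the ranges that crossed 0 were -0.040 to 0.049 and -0.063 to 0.081 (BCL2L2, siHP1γ and siPRMT5 interactions), -0.11 to 0.095 and -0.16 to 0.11 (BCL2L11, siHP1γ Eth and Dex in siHP1γ), -0.17 to 0.10 (BCL2L11, siPRMT5 interaction), -0.13 to 0.012 and -0.032 to 0.16 (BCL2 and BAK1, siHP1γ Dex), -0.047 to 0.16 and -0.11 to 0.025 (BCL2 and BAK1, Dex in siPRMT5) and -0.045 to 0.15 (BAK1, Dex in siHP1γ). The cause was not tested, and none of these values passed the test.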
